A study of Homo sapiens with 2 samples.

Results

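Cancer cells shape the immune cells around them through the proteins they release, and the 56 genes described here encode such proteins: chemokines, cytokines and growth factors. Their transcripts were followed in a comparison of 2 libraries of human cells that carry the label MDA-MB-231, the name of a triple-negative breast carcinoma line. The shCtrl library came from cells carrying a control short hairpin RNA. The shZEB1 library came from cells with a knockdown of ZEB1 (the sources used here give neither hairpin sequence nor vector), a zinc-finger repressor best known for its part in the epithelial-to-mesenchymal transition. The series asks how ZEB1 in tumour cells bears on M2-like macrophages, and its title names CXCL1. The genes were chosen by name, as a list of secreted factors, with earlier results of these data known. They were found by their Entrez Gene identifiers among 16085 genes and loci listed in either library. Of the 56, 44 were listed in both libraries, 5 in shCtrl alone (CXCL10, CSF2, IL6, IL1A and TSLP) and 1 in shZEB1 alone (EDN1). CXCL5, CXCL11, CXCL12, CXCL14, IL33 and HGF were in neither library, so the CXCR4 ligand CXCL12 and the MET ligand HGF had no level to compare.

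Chemokines are small secreted proteins that draw leukocytes along a gradient by acting on G protein-coupled receptors. The ELR-positive CXC chemokines, to which CXCL1 and CXCL8 belong, act on CXCR2 and are known mainly for recruiting neutrophils and other myeloid cells. CC chemokines such as CCL2 and CCL5 attract monocytes and T cells, CSF1 and IL34 sustain macrophages through CSF1R, and MIF acts through CD74. Many of these genes are silent at rest and are switched on by NF-kB, AP-1 and C/EBP factors, and their mRNAs often carry AU-rich elements that shorten their life.

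With 1 library a group and no replicates, each value below compares these libraries only, no test was possible and no p-value is given. The libraries held 8740584 reads (shCtrl) and 8441491 reads (shZEB1) assigned to genes, and 1 read on a gene of 1 kb was worth an FPKM of 0.114 and 0.118. FPKM is the number of fragments scaled to gene length and to library size, so it allows levels of different genes to be compared. Intervals are 95% exact intervals that cover counting error only. ZEB1 itself was scarce, with 46 reads in shCtrl (FPKM 0.88) and 15 in shZEB1 (FPKM 0.31), a read ratio of 0.338 (interval 0.175 to 0.616), and some of its exon bases are shared with ZEB1-AS1 on the other strand. Marker genes did not all go with the line label: all 8 melanocyte markers examined reached an FPKM of 1, with a median FPKM of 164 (shCtrl) and 125 (shZEB1). Among them were the pigment cell genes PMEL (703 and 405), DCT (225 and 123) and TYRP1 (223 and 228), and SOX10 (175 and 171). By contrast EGFR, abundant in MDA-MB-231 as the line is known, had 0.52 and 0.65. Of 10 genes known from MDA-MB-231, 8 reached an FPKM of 1, with a median of 43.6 and 51.3 among those 8. Of these, KRT7 (0.74 and 1.67) and F3 (0.87 and 1.82) did so in shZEB1 only. The highest was VIM (1946 and 1695), and KRT19 was in neither library. Of 9 macrophage markers, 1 (FCER1G, 7 and 6 reads) reached an FPKM of 1, PTPRC, CD163 and TYROBP were listed in neither library, and the summed FPKM of the 9 was 2.09 (shCtrl) and 1.6 (shZEB1). Of 8 fibroblast and endothelial markers only LUM reached an FPKM of 1 (0.56 and 1.55), and their summed FPKM was 1.16 and 2.44. Fewer cells making a transcript and less of it in each cell cannot be told apart in such libraries.

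The upstream sequences of 5 chemokine and cytokine genes are shown first, since they carry what the CXCR2 ligands share. Each is the 250 bases before the annotated start of the gene, read from RefSeq on GRCh38.p14 and written 5′ to 3′ on the strand of the gene. Capitals mark matches, on either strand, to GGNNTTTCC (a core of many NF-kB sites), TGANTCA (AP-1), TTGCNNAA (C/EBP) and CACCTG (the E-box read by ZEB1).
CXCL1, chr4:73869143-73869392, plus strand: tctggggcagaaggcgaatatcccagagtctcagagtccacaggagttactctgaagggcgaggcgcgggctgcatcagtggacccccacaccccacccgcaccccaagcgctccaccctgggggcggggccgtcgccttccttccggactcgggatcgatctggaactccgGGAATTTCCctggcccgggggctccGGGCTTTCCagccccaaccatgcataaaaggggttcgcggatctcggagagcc
CXCL2, chr4:74099196-74099445, minus strand: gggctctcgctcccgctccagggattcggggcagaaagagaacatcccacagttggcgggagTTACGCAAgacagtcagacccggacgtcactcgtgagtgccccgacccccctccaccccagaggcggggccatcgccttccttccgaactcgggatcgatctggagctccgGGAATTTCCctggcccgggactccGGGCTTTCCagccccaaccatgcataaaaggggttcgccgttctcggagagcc
CXCL8, chr4:73740319-73740568, plus strand: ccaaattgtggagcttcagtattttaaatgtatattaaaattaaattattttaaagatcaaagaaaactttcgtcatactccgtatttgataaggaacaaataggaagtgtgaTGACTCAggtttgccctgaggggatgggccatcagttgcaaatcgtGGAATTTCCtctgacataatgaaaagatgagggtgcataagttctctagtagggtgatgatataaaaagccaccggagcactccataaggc
IL6, chr7:22726950-22727199, plus strand: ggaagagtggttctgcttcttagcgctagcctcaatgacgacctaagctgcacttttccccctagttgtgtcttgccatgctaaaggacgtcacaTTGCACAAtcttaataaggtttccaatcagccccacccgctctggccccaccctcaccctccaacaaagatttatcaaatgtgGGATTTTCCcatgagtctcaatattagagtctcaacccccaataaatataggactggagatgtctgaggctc
CCL20, chr2:227813592-227813841, plus strand: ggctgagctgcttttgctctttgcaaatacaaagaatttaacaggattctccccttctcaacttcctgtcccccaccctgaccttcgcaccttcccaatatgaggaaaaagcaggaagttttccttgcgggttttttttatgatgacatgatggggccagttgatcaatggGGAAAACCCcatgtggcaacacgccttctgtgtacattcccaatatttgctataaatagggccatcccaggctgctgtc
Counted from the start of the gene, the NF-kB letters of CXCL1 begin at -78 and -53 and those of CXCL2 at -77 and -53, with the same letters in both genes. CXCL8 has 1 such match from -91 and an AP-1 match from -137. CCL20 is set beside them as a chemokine gene with a match, on the opposite strand, whose level was nearly the same in both libraries. The printed windows all hold an NF-kB match and do not stand for every gene that was lower in shZEB1. IL1B and IL24, both counted as lower further on, have no NF-kB match in their windows, which are not printed.

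A secreted factor was abundant in few cases. In shCtrl, 12 of the 56 genes had an FPKM of at least 10 and another 16 had 1 to 10. In shZEB1 the counts were 9 and 17. MIF, an inhibitor of macrophage migration that is released by many cell types, was far above the rest with an FPKM of 823 (shCtrl) and 805 (shZEB1). It alone made up 66.0% of the summed FPKM of the 56 genes in shCtrl and 68.9% in shZEB1. GDF15, a stress-induced member of the TGF-beta superfamily, followed with 117 and 84.2, and CLEC11A, a growth factor of bone and blood progenitors, with 76.0 and 77.9. These 3 made up 81.5% and 82.8% of the sum. PROS1 (34.5 and 46.6), VEGFB (32.7 and 20.7), CCL5 (19.8 and 26.6) and CCL28 (17.7 and 12.6) came next in shCtrl.

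CXCL1 stood at place 10 of the 49 genes listed in shCtrl and at place 14 of the 45 listed in shZEB1. Its FPKM in shCtrl was 11.6, with a counting interval of 9.58 to 13.9. The genes beside it were CXCL8 with 11.6 (9.90 to 13.5), IL24 with 10 (8.53 to 11.6), TGFB1 with 13.45 (12.0 to 15.1) and CSF3 with 15.1 (13.1 to 17.3). The intervals of CXCL8, IL24, TGFB1 and CSF3 each overlap that of CXCL1, while the interval of IL24 lies below those of TGFB1 and CSF3. Overlap of separate intervals does not by itself settle whether 2 levels differ, so the place of CXCL1 among these genes is descriptive. In shZEB1 the group had spread out: TGFB1 was at 11.7 (10.3 to 13.3), CXCL1 at 5.44 (4.06 to 7.13), IL24 at 4.10 (3.16 to 5.23), CSF3 at 3.61 (2.65 to 4.80) and CXCL8 at 2.70 (1.91 to 3.71). There the intervals of TGFB1 and CXCL8 no longer met that of CXCL1, while those of IL24 and CSF3 did. MIF had 70.9 times the FPKM of CXCL1 in shCtrl and 148 times in shZEB1.

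**Figure D1:**
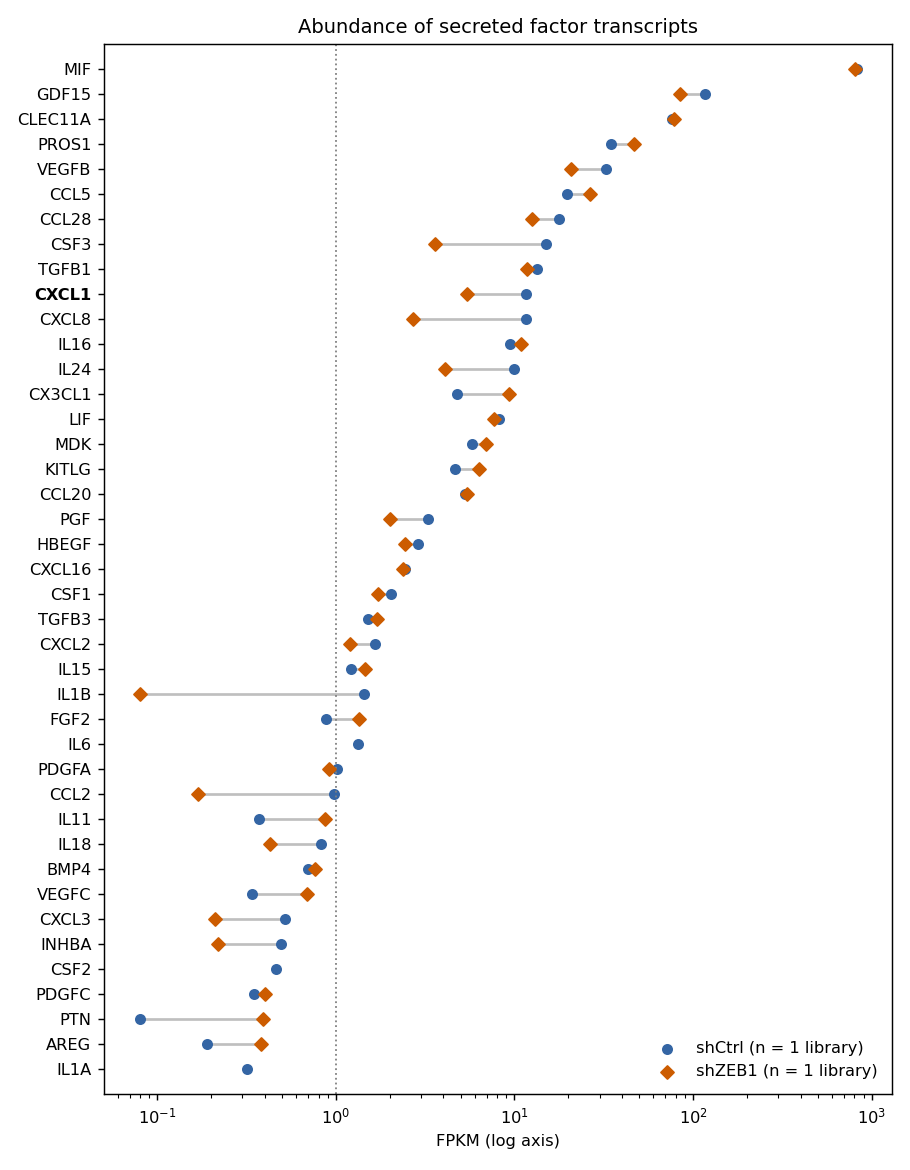
FPKM on a log axis for the secreted factors with an FPKM of at least 0.3 in either library, shCtrl as circles and shZEB1 as diamonds (1 library each), ordered by the higher of the 2 values; the dotted line marks an FPKM of 1. MIF lies far to the right at 823 and 805, and the widest gaps between libraries among genes above an FPKM of 10 are those of CSF3 (15.1 and 3.61) and CXCL8 (11.6 and 2.70); a gene not listed in a library has no point there.

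A gene was taken as measured where its FPKM was at least 1 in either library, which held for 29 of the 56 genes. It was counted as lower or higher where log2((FPKM shZEB1 + 1)/(FPKM shCtrl + 1)) reached -1 or 1 and the interval of its read ratio excluded 1. Adding 1 shrinks the ratios of scarce genes. By that rule 5 of the 29 were counted as lower in shZEB1 (CXCL8, CSF3, IL24, IL6 and IL1B) and 0 as higher, against 1.61% lower and 0.937% higher of the 12274 genes and loci measured. IL6 and IL1B passed the FPKM minimum through shCtrl alone, and FGF2 and PDGFA likewise through 1 library. Among the 25 genes that reached an FPKM of 1 in each library, 3 were counted as lower (CXCL8, CSF3 and IL24), against 1.23%. By the read interval alone, 10 of the 29 lay below 1 and 6 above, against 21.4% and 27.9% of all measured genes, so the share on the higher side was near or under that of genes at large. The median log2 ratio of the 29 was -0.08, with 18 negative values, and that of all measured genes was 0.02. Of the 29, 9 share exon bases with another gene (CXCL16, FGF2, IL16, IL6, KITLG, LIF, MIF, TGFB1 and TGFB3), and reads of the partners cannot be told apart without strand.

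Under other settings the counts of lower genes are again read against all measured genes. They were 6 at a pseudocount of 0.1 (2.4%), 6 with edgeR or DESeq2 scaling (2.7% each), 3 with an FPKM of at least 5 (1.46%), 7 at a fold of 1.5 (5.41%) and 2 at a fold of 3 (0.383%). With edgeR or DESeq2 scaling 1 was added to scaled reads instead of to FPKM. With the median ratio (1.69%), TPM (1.81%), no filter (1.23%) or a 99% interval (1.51%) the counts of lower genes stayed at 5. On the higher side 1 gene, CX3CL1, was counted at a fold of 1.5 (4.98%). None was counted with a pseudocount of 0.1 (2.53%), the median ratio (0.855%), TPM (1.95%), edgeR (2.4%) or DESeq2 (2.52%) scaling. None was counted either with no filter (0.715%), an FPKM of at least 5 (0.481%) or of 1 in each library (0.449%), a fold of 3 (0.163%) or a 99% interval (0.912%).

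**Figure D2:**
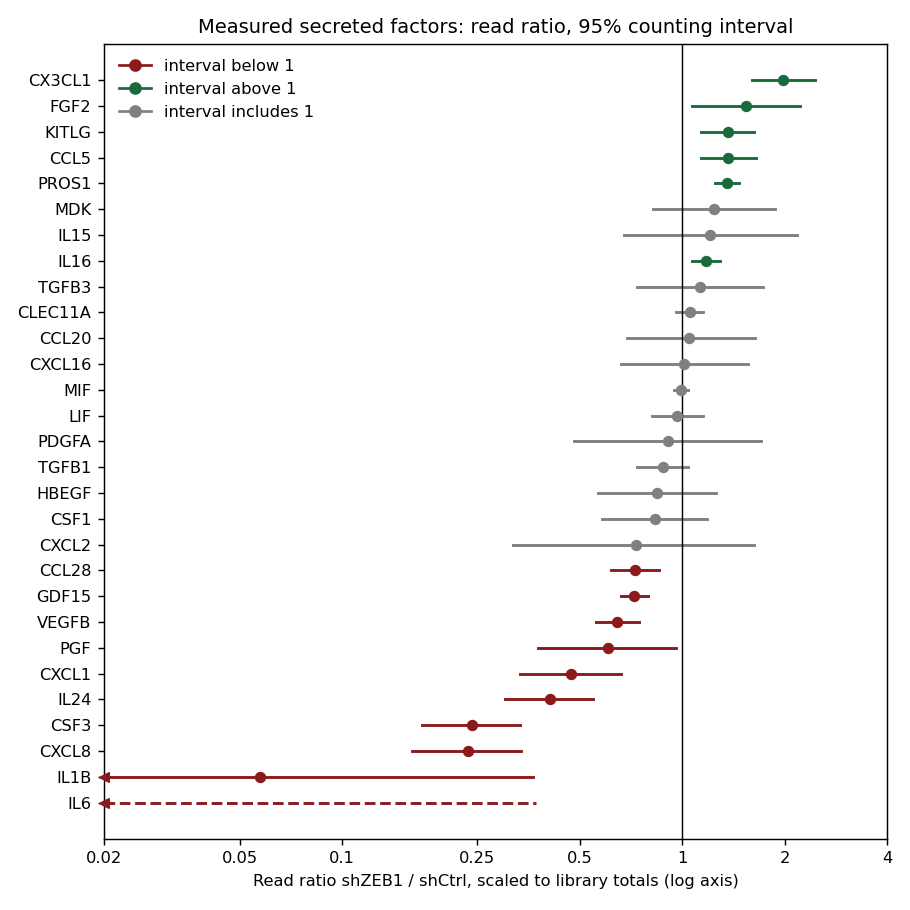
Read ratio of shZEB1 to shCtrl, scaled to library totals, on a log axis for the 29 measured secreted factors, with 95% counting intervals as lines; left arrows mark intervals that run past the axis, and the dashed line is IL6, which had 12 reads in shCtrl and none in shZEB1. CXCL8 (0.234), CSF3 (0.241), IL24 (0.408) and CXCL1 (0.472) lie left of 1 and CX3CL1 (1.98) lies farthest right.

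**Figure D3:**
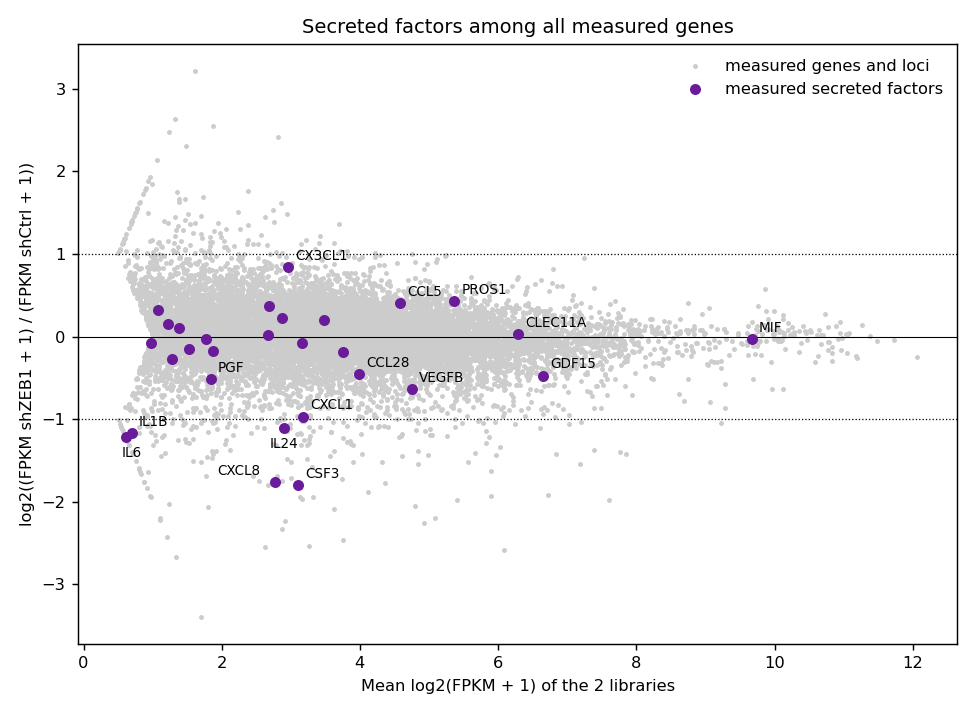
Log2 ratio of shZEB1 to shCtrl against the mean log2(FPKM + 1) of the 2 libraries, for the 12274 measured genes and loci in grey and the 29 measured secreted factors in purple; dotted lines mark ratios of -1 and 1. CSF3 (-1.80) and CXCL8 (-1.77) lie below most genes of similar level, CXCL1 (-0.97) lies just above the lower line and CX3CL1 (0.84) just under the upper one.

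The CXCR2 ligands lie together on chromosome 4, where the 6 genes span 359 kb (chr4:73740569-74099195, GRCh38.p14). CXCL1 (Entrez Gene 2919, chr4:73869393-73871308) had 114 reads (shCtrl) and 52 (shZEB1), and its FPKM was 11.6 and 5.44. The shZEB1 level was 2.13-fold lower, with a read ratio of 0.472 (interval 0.333 to 0.661). Its log2 ratio of -0.97 fell short of the size rule, and 1.84% of all measured genes had a ratio as low or lower. With a pseudocount of 0.1 it was counted as lower (-1.08). The same held on counts scaled by either count-based method (-1.12 with each), where 1 was added to reads instead of to FPKM.

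CXCL8 (chr4:73740569-73743716), the classical neutrophil attractant, had 168 reads (shCtrl) and 38 (shZEB1), with FPKM of 11.6 and 2.70. It was 4.29-fold lower (interval of the read ratio 0.160 to 0.335). The 2 genes thus had nearly equal FPKM in shCtrl, with a CXCL8 to CXCL1 quotient of 0.998, and a quotient of 0.496 in shZEB1. The read ratio of CXCL8 divided by that of CXCL1 was 0.497 (exact interval 0.297 to 0.825), so CXCL8 differed more between the libraries than CXCL1 did, beyond counting error.

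The other CXCR2 ligands were scarce. CXCL2 had 17 and 12 reads (FPKM 1.66 and 1.2) and an interval of 0.318 to 1.62 that included 1. CXCL3 had 5 and 2 reads, CXCL6 had 1 and 3, and CXCL5 was not listed. The coding sequence of CXCL1 shares 93.5% of its bases with that of CXCL2 and 90.7% with that of CXCL3, against 52.4% with CXCL8, and the longest unbroken stretch it shares with CXCL2 is 61 bases. How the authors' counting divided reads from such stretches is not given in the sources used here, though the expected counts of all of these genes were whole.

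Other CXC chemokines were nearly absent. CXCL16, the membrane-bound ligand of CXCR6, had an FPKM of 2.43 (shCtrl) and 2.37 (shZEB1), near equal, with a small ratio whose sign turns under TPM. The interferon-induced CXCR3 ligand CXCL10 had 1 read in the control library and none was listed for the knockdown library. Of the CC and CX3C group, CX3CL1 lay highest among all 29 genes by ratio. CX3CL1 (fractalkine, chr16:57372490-57385044) is a tethered attractant of monocytes and T cells that is cut from the membrane by ADAM10 and ADAM17. It had 136 reads (shCtrl) and 260 (shZEB1), and its FPKM of 4.78 and 9.37 differed 1.96-fold (read ratio 1.98, interval 1.6 to 2.45). Its log2 ratio of 0.84 did not reach the size rule, and 1.88% of measured genes lay as high or higher. Of its sheddases, ADAM10 had 31.6 and 27.4 FPKM and ADAM17 13.2 and 16.8.

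CCL5, which attracts T cells and monocytes, had an FPKM of 19.8 (shCtrl) and 26.6 (shZEB1) (read ratio 1.36, interval 1.13 to 1.64). CCL28, an epithelial chemokine acting on CCR10, had 17.7 and 12.6 (interval 0.619 to 0.851). CCL20, the CCR6 ligand, had 5.31 and 5.41 FPKM (interval 0.686 to 1.63). CCL2, the main attractant of monocytes, had 6 reads and 1 read, which did not resolve a difference. The 4 measured genes of this group therefore held ratios on both sides of 1.

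Among the colony-stimulating factors, CSF3 stood apart. CSF3 (G-CSF, chr17:40015440-40017813), which drives neutrophil production, had 202 reads (shCtrl) and 47 (shZEB1). Its FPKM of 15.1 and 3.61 differed 4.18-fold (read ratio 0.241, interval 0.172 to 0.332), and 0.236% of measured genes had a log2 ratio as low. CSF1, the main survival factor of macrophages, had 75 and 60 reads (FPKM 2.04 and 1.73, interval 0.580 to 1.18). IL34, the other CSF1R ligand, had 1 read in each library, and CSF2 (GM-CSF) had 3 reads in the control library and none was listed for the knockdown library. KITLG, the ligand of KIT, had an FPKM of 4.67 and 6.32 (interval 1.14 to 1.63). CLEC11A, with 932 and 946 reads, had an interval of 0.959 to 1.15.

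The IL6 family shares the receptor subunit gp130, encoded by IL6ST. IL6 (chr7:22727200-22731998), an inducer of STAT3 signalling, had 12 reads in shCtrl (FPKM 1.33) and was not listed in shZEB1. Set against a limit of 3 reads in that library, it was at least 3.86-fold lower if the 12 reads are taken as exact, and the interval of the read ratio, up to 0.373, allows a smaller difference. It shares exon bases with STEAP1B and an antisense transcript. LIF, a relative of IL6, was more abundant than IL6 and near equal in both libraries, at 8.16 and 7.69 FPKM (interval 0.813 to 1.15). IL11 had 7.52 and 17.1 expected reads, with an interval of 0.900 to 5.89 that included 1. IL6ST was itself counted as lower, with an FPKM of 14.7 (shCtrl) and 6.35 (shZEB1) (1162 and 485 reads, interval 0.388 to 0.481). The other chains lay on both sides, since IL6R had 11.3 and 9.12, LIFR had 1.54 and 2.58 and IL11RA had 1.71 and 4.31. IL11RA shares exon bases with GALT and CCL27, and IL6ST with an antisense transcript.

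The IL1 family was present at a few reads only. IL1B (chr2:112829751-112836779), a pyrogenic cytokine that requires cleavage by CASP1, had 18 reads (shCtrl) and 1 (shZEB1) (read ratio 0.0575, interval 0.00138 to 0.364). IL1A, its neighbour on chromosome 2, had 8 reads and was not listed in shZEB1, at least 2.58-fold lower against 3 reads if its 8 reads are taken as exact. It was the only one of the 21 listed genes below the FPKM minimum whose interval (up to 0.607) excluded 1. IL18 had 8 and 4 reads. CASP1 had an FPKM of 13.6 and 9.22 (interval 0.538 to 0.894), and the receptor chain IL1RAP 30.9 and 21.2.

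IL24 (chr1:206897443-206904139), an IL10-family cytokine first described as a melanoma differentiation gene, was the fifth gene counted as lower. It had 165 reads (shCtrl) and 65 (shZEB1), and an FPKM of 10 and 4.10 (2.44-fold, interval of the read ratio 0.301 to 0.547). Of its receptor chains, IL20RB had 10 and 4 reads, IL22RA1 had 19 and 15, and IL20RA was not listed. IL16, a CD4 ligand released from a larger precursor, had 9.41 and 10.9 FPKM (interval 1.07 to 1.29), and its exons overlap those of STARD5. IL15 had 24 and 28 reads and TSLP at most 1.

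In the TGF-beta superfamily the differences were smaller. TGFB1, which restrains inflammatory activation of macrophages, had an FPKM of 13.45 (shCtrl) and 11.7 (shZEB1) (interval 0.737 to 1.04), and TGFB3 had 1.51 and 1.69. TGFB2 had 1 read in each library, BMP4 11 in each and INHBA 9 and 4. GDF15 (chr19:18386158-18389176) had 1188 and 830 reads, a read ratio of 0.723 (interval 0.661 to 0.791) that was below 1 but far from the size rule. Of the latency and processing genes, LTBP1 had 10.8 and 12.4 FPKM, LTBP3 8.66 and 10.6, and FURIN 39.4 and 43.4, whereas the convertases PCSK6 (7.78 and 5.27) and PCSK7 (12.9 and 9.70) were lower. Over the 20 measured genes that process or shed such factors, 7 intervals lay below 1 and 8 above, against 21.4% and 27.9% of all measured genes. The receptor gene TGFBR2 had 13.9 and 17.9 FPKM and TGFBR1 15.9 and 16.0.

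The members of the list that act on FLT1, VEGFB and PGF, were lower by less than the size rule. VEGFB had 497 reads (shCtrl) and 309 (shZEB1) (FPKM 32.7 and 20.7, interval 0.557 to 0.743), and PGF had 53 and 31 reads (interval 0.376 to 0.961). The related VEGFA, which is no member of the list, was counted as lower at 35.8 and 14.9 FPKM (interval 0.373 to 0.468), and its exons overlap an antisense transcript. FGF2 had 52 and 77 reads (FPKM 0.88 and 1.35, interval 1.06 to 2.22) and overlaps the antisense gene NUDT6. VEGFC, PDGFA, PDGFC and EDN1 had at most 24 reads in either library, and none of their intervals excluded 1.

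Growth factors of epithelial and neural type were low. MDK (midkine) had 5.77 and 6.91 FPKM and HBEGF, an EGFR ligand, 2.90 and 2.44, and both intervals included 1. AREG, NRG1 and PTN had at most 6 reads in either library. The gene length that the authors used for NRG1 was 2604 bases in shCtrl and 1592 in shZEB1, so its FPKM values are not on the same footing.

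The last group held both the most abundant and some of the scarcest factors. MIF (chr22:23894383-23895223) had 3591 reads (shCtrl) and 3443 (shZEB1), a read ratio of 0.993 with an interval of 0.947 to 1.04. The 2 libraries thus differed by less than counting error. The sign of its log2 ratio of -0.03 turns under TPM. CD74, its receptor, had 29 and 14 reads (interval 0.244 to 0.977). PROS1, a ligand of the TAM receptors that promote uptake of dying cells by macrophages, had 1072 and 1403 reads and an FPKM of 34.5 and 46.6 (read ratio 1.36, interval 1.25 to 1.47). The related ligand GAS6 had 5 reads in each library. Among the TAM receptors in these cells, TYRO3 had 29 and 28.8 FPKM, AXL 11.1 and 9.12 and MERTK 1.5 and 1.09. SPP1 (osteopontin), a factor known from tumour-associated macrophages, had 1 and 2 reads.

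**Figure D4:**
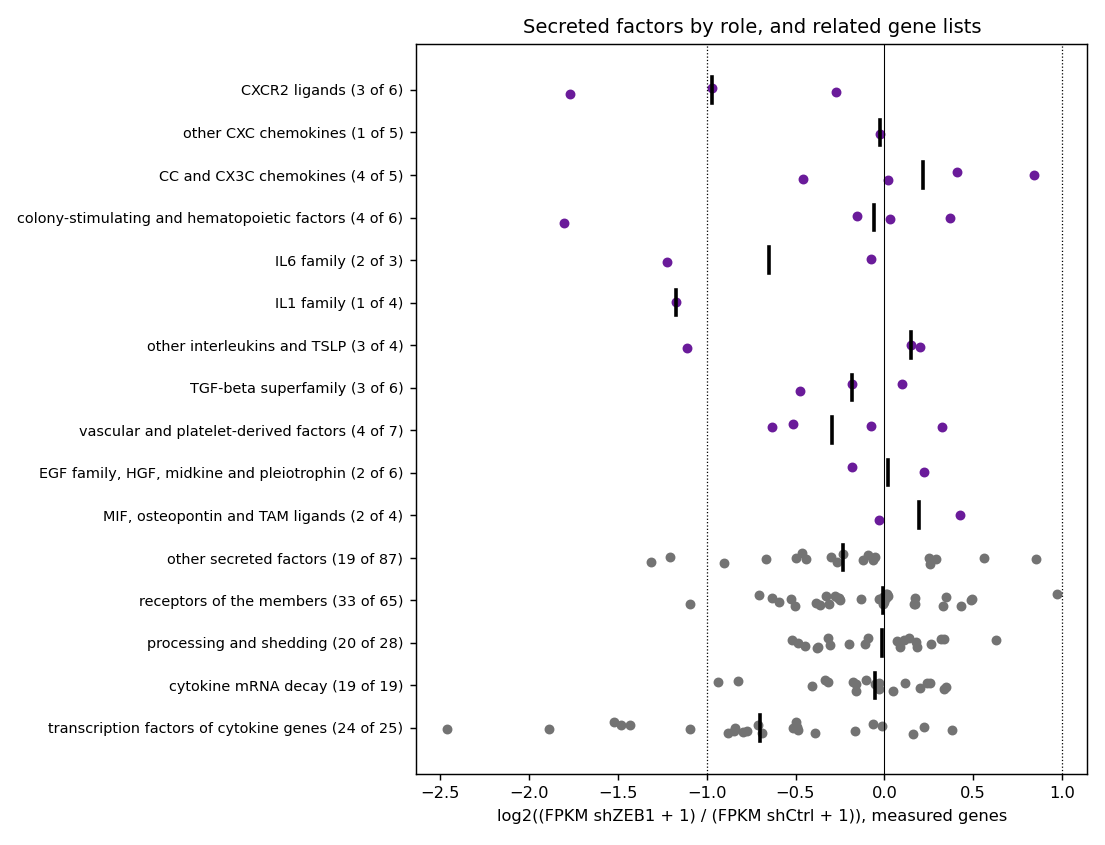
Log2 ratio of shZEB1 to shCtrl for the measured genes of each role group (purple) and of related gene lists (grey), with the number measured of the number listed, a black bar at each median and dotted lines at -1 and 1. The CXCR2 ligands have a median of -0.97 over 3 genes, the receptors -0.01 over 33 and the transcription factors of cytokine genes -0.70 over 24; points are spread vertically only to separate them.

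Of the 56 genes, 30 encode factors with a known action on macrophages or their precursors, and 15 of these were measured: CXCL1, CXCL2, CXCL8, CCL5, CX3CL1, CSF1, IL6, LIF, IL1B, TGFB1, TGFB3, VEGFB, PGF, MIF and PROS1. Ranks and shares depend on that choice, since GDF15 (FPKM 117) and CSF3 (15.1), both above CXCL1 in shCtrl, were not placed among the 30. Among the 15, CXCL1 was sixth by FPKM in shCtrl, after MIF, PROS1, VEGFB, CCL5 and TGFB1, and eighth in shZEB1, where CX3CL1 and LIF had also passed it. CXCL1 made up 1.19% of the summed FPKM of the 30 genes in shCtrl and 0.576% in shZEB1, against 84.4% and 85.3% for MIF. By log2 ratio CXCL1 was the fourth from the bottom of the 15, after CXCL8, IL6 and IL1B. The intervals of CXCL8, CXCL1, IL6, IL1B, VEGFB and PGF lay below 1, and those of CCL5, CX3CL1 and PROS1 above it. These are 6 and 3 of the 15, against 21.4% and 27.9% of all measured genes. IL6 and IL1B were measured through shCtrl alone. The median log2 ratio of the 15 was -0.18, against 0.02 for all measured genes, and the summed FPKM of the 30 was 975 and 944.

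The receptors through which the cells could answer their own factors were partly absent. CXCR2 had 2 reads in the control library and none was listed for the knockdown library, and CXCR1 was in neither library. CSF1R had 3 reads and 1 read, CSF3R 4 reads and 1 read, and CCR2 and CX3CR1 were not listed. Of 65 receptor genes 33 were measured, and 1 (IL6ST) was counted as lower and 0 as higher, against 1.61% and 0.937% of all measured genes. By interval 13 lay below 1 and 7 above, against 21.4% and 27.9%. Of 87 further secreted factors that are not among the 56, 19 were measured, and 2 were counted as lower, VEGFA and IL32 (20 and 2 reads), and 0 as higher, against the same 1.61% and 0.937%. Their median log2 ratio was -0.23.

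Transcription factors of cytokine genes, in a list that also holds the inhibitor NFKBIA, ZEB1 itself and ZEB2, were lower in shZEB1 in most cases. Of 25 genes 24 were measured, 19 intervals lay below 1 and 3 above (21.4% and 27.9% of all measured genes), and 6 (1.61%) were counted as lower. The gene not measured was ZEB1. ZEB2, with an FPKM of 16.3 (shCtrl) and 11.3 (shZEB1) (interval 0.640 to 0.760), was among the 19. JUN, a subunit of AP-1, had an FPKM of 30.7 (shCtrl) and 4.75 (shZEB1), and its partner FOS had 32.3 and 7.98. EGR1 had 24.4 and 7.82, ATF3 11.9 and 3.61, CEBPB 51.0 and 18.3, and NFKBIA, a target and inhibitor of NF-kB, 29.9 and 13.5. Of the NF-kB subunits themselves, RELA had 52.5 and 39.9, NFKB2 32.3 and 17.1, RELB 8.93 and 4.82 and NFKB1 17.7 and 20.8. Exons of CEBPB and of ZEB2 each overlap an antisense gene. Genes that control the decay of cytokine mRNA had no such shift, with a median of -0.05 over 19 genes. Of these, 4 intervals lay below 1 and 5 above, against 21.4% and 27.9% of all measured genes. None was counted as lower (1.61%) or higher (0.937%). ZFP36 (tristetraprolin), which destabilises AU-rich mRNAs, had 6.49 and 4.94 FPKM, ARID5A, which protects IL6 mRNA, 24.5 and 12.3, and DUSP1, a phosphatase of p38, 7.10 and 3.57. The 5 decay genes with intervals above 1 were CNOT1, HNRNPD, KHSRP, RC3H2 and TIA1, of which HNRNPD (AUF1) had 134 and 160 FPKM. The part of these factors in the levels of the secreted genes was not tested.

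Upstream motifs were read for the 43 of the 56 genes with a RefSeq promoter sequence, in the same 250 bases as shown above. The NF-kB letters GGNNTTTCC were present, on either strand, in 11 of the 43, against 5.48% of 27305 promoters of that length and 5.90% of those of measured genes. All 6 CXCR2 ligands held them, and the others were CXCL10, CXCL11, CCL20, IL6 and INHBA. The matches of CXCL1, CXCL2 and CXCL3 begin at nearly the same places, and the CXCL1 and CXCL2 windows are much alike. The 11 genes are therefore not independent cases. Of the 21 measured genes with a sequence, 3 of 9 with an interval below 1 held them (CXCL1, CXCL8 and IL6), 0 of 4 with an interval above 1, and 2 of 8 with an interval that included 1 (CXCL2 and CCL20). These groups leave out measured genes without a sequence: CSF3 (interval below 1), CX3CL1 and CCL5 (above 1), and CXCL16, CSF1, LIF, IL15 and MDK. The genes with the lowest (CSF3) and highest (CX3CL1) log2 ratio are thus missing from the comparison. AP-1 letters were found in 5 of 43, against 6.60% of all promoters and 3.62% of those of measured genes, and in 1 of the 21 measured (CXCL8). C/EBP letters were found in 3 of 43 (CXCL2, IL6 and IL1B, all measured), against 9.13% and 5.92%. The E-box CACCTG was found in 10 of 43, against 17.5% of all promoters and 14.8% of those of measured genes. Of the measured genes, 2 of 9 with an interval below 1 held it (CCL28 and PGF), 1 of 4 above 1 (IL16) and 2 of 8 that included 1 (PDGFA and HBEGF). The printed windows of CXCL1, CXCL2, CXCL8, IL6 and CCL20 do not hold these letters. No match of 1 motif overlapped that of another in these 5 windows. A match describes letters in a short window, not a bound site, and the lack of one says nothing of other windows.

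**Figure D5:**
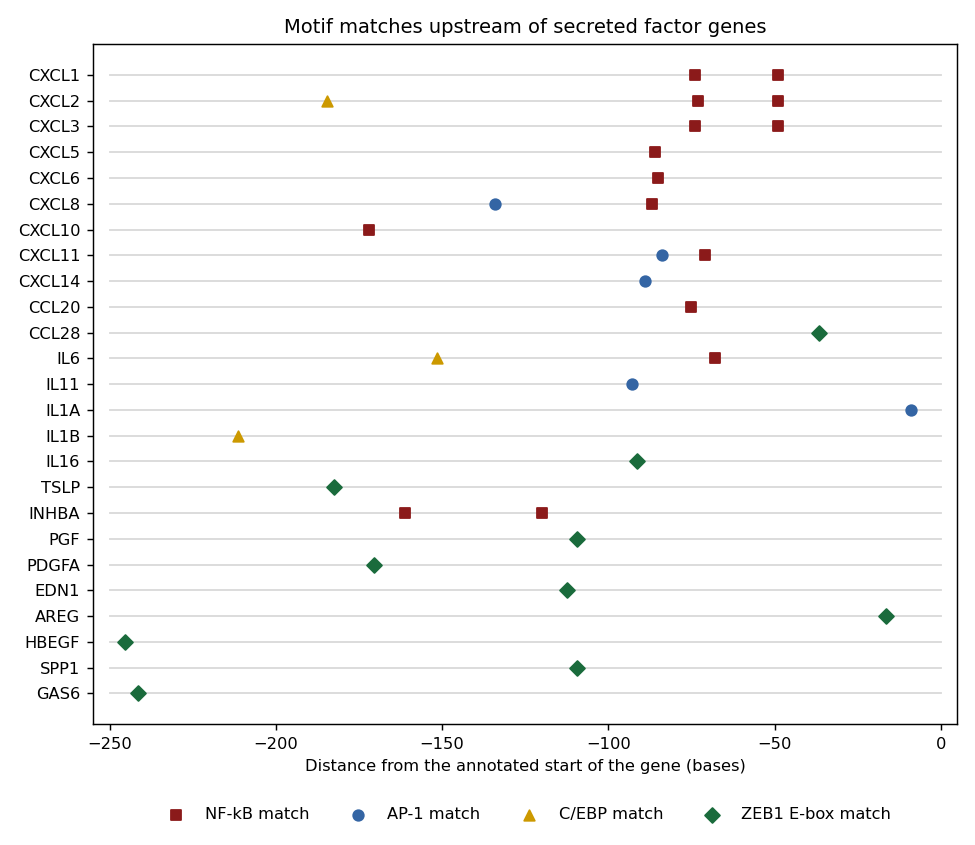
Position of motif matches, in bases from the annotated start of the gene, for the 25 of 43 secreted factor genes with at least 1 match in the 250 bases upstream. NF-kB matches of CXCL1, CXCL2 and CXCL3 begin at -78 or -77 and at -53, and those of CXCL5, CXCL6 and CXCL8 lie between 81 and 91 bases before the start.

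The AU-rich pentamer ATTTA was counted in the 3′ untranslated region of the RefSeq-matched GENCODE transcript with the longest coding sequence, for 52 of the 56 genes. CX3CL1, TGFB3, PTN and IL16 were not analysed here. The 10 measured genes whose interval lay below 1 had a median of 5.5 copies (range 0 to 9), the 4 with an interval above 1 a median of 10 (0 to 21), and the 12 with an interval that included 1 a median of 2 (0 to 10). The median of 10955 measured protein-coding genes was 2. CXCL8 had 9 copies, CSF3 7, IL6 and IL1B 6 each, CXCL1 5 and IL24 3, whereas VEGFB had 0. On the other side KITLG had 21 and FGF2 18, in long regions of 4426 and 5840 bases, and CXCL2, whose interval included 1, had 10. Per kilobase the medians of the same genes were 7.16, 2.43 and 2.02 in the 3 groups and 1.56 in measured genes at large. The order of the first and second group thus depends on whether copies are scaled to length. These are descriptions of groups formed by their ratio, with no test.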

How the data were processed

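RNA selected with oligo(dT) was sequenced on a DNA nanoball platform, with 1 library per group, per the labels' protocols. The submitters' processing notes name DESeq, RSEM (1.2.8), HISAT2 (2.1.0) and Bowtie2 (2.2.5) and the build hg38. The sources used here do not give the role of each tool or the strand setting. The deposited files hold, per the file headers, an expected count (estimated reads) and an FPKM per gene, as the authors computed them separately in the 2 libraries. A gene missing from a file was entered at 0. Entrez identifiers were matched to RefSeq (GRCh38.p14), with 15183 of 15217 matched, including all 56 genes described.

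The ratio measure was log2(FPKM + 1), with genes measured at an FPKM of 1 or more in either library. Read ratio intervals were exact conditional binomial (Clopper-Pearson) intervals on expected counts rounded to whole numbers and scaled by library totals. Level intervals were exact Poisson. Both cover counting error only, take reads as independent although PCR copies without molecular identifiers are not, and leave out the spread between cultures. The limit for a gene with no read was 3 reads. The rule was tested on simulated libraries with counting error only, with changes planted in genes with an FPKM of at least 5 in shCtrl. That test did not cover changes in scarce genes or the spread between cultures. Alternatives were a pseudocount of 0.1, other filters, folds and intervals, the median ratio, TPM, and edgeR 4.0.16 and DESeq2 1.42.0 scaling factors, with no test from either tool since 1 library per group gives no dispersion. Log2 ratios under the edgeR and DESeq2 factors were taken on scaled reads plus 1. Every one of the 56 genes is accounted for, and of the other lists the text names genes that met the size rule, receptors of described factors and markers; sheddases, convertases, latency proteins, mRNA decay genes and transcription factors given beside them as examples were chosen after their values were seen. The genes and lists were chosen with earlier results of these data known. Exon overlaps, coding sequences and 3′ regions came from GENCODE release 29. Work was done in R 4.3.3 and Python 3.11.15 (SciPy 1.17.1, pandas 2.3.3, NumPy 2.4.6).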

Additional observations from a re-analysis of the deposited data

How the results depend on the processing

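The 5 genes counted as lower became 6, with CXCL1 added, at a pseudocount of 0.1 and under the edgeR and DESeq2 factors, and 7 at a fold of 1.5. Under the edgeR and DESeq2 factors 1 was added to scaled reads instead of to FPKM. The measure thus changed along with the scaling, and the added call of CXCL1 cannot be credited to the scaling alone. The genes counted as lower were 3 with an FPKM of at least 5 in either library or at least 1 in both, and 2 (CXCL8 and CSF3) at a fold of 3. Those changes follow from fewer genes being tested or from the stricter fold. The count of higher genes stayed at 0 except at a fold of 1.5, where CX3CL1 made it 1. The log2 ratio of CXCL1 was -0.97 and passed the rule at -1.08 (pseudocount of 0.1), at -1.12 (edgeR) and -1.12 (DESeq2), and at -0.97 with a fold of 1.5; under the median ratio (-0.99) and TPM (-0.98) it did not. CXCL1 ranked 16 in shCtrl by reads instead of 10 by FPKM, since reads are not scaled to length. For the other 28 measured genes no call changed with the pseudocount or scaling, though the small ratios of MIF and CXCL16 changed sign under TPM. The largest shift of the median of all measured genes under these scalings was 0.05 (log2, TPM). No paired analysis was possible because each group has 1 library. Depth limits the scarce genes: 17 of the 50 listed had fewer than 10 reads in both libraries.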
